A study of Homo sapiens with 4 samples.

Results

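The 8 genes described here encode parts of the translation machinery. They are the ribosomal protein genes RPL21, RPL3, RPS6, RPL22, RPL15 and RPS24 and the elongation factor genes EEF1A1 and EEF2, taken as 8 fixed strand windows of hg19 out of the 18156 loci into which the 3′ end sites of the libraries fall. Their windows held 25 of the 33723 kept sites. A site is a group of 3′ end positions within 25 nt of the most used position, kept where its average over the libraries reached 1 RPM, the usual scaling of reads by library total. RPL21 was chosen by a measured value, its change in site use after CstF-64 siRNA, so its site use is given as a description without a test. The other 7 genes were listed with earlier results of these libraries known.

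The cells were HEK293, a human embryonic kidney cell line, and 3′ ends were read by A-seq, in which an anchored oligo-dT primer ties each read to the nucleotide where the poly(A) tail was added. There were 4 groups with 1 library each: cells given siRNA against CstF-64, cells given siRNA against CF Im 68, cells given a control siRNA, and cells given no siRNA. The siRNA cells were harvested 3 days after transfection, and how many cultures stood behind each library was not given in the sources used here. With no second library in any group, no difference below has a replicate check. The tests printed compare the reads of 2 libraries, not conditions. All intervals are exact 95% intervals (Clopper-Pearson or Poisson) that cover counting error only. Whether PCR copies were removed was not given in the sources used here, so the reads may not all be independent counts.

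CstF-64, encoded by CSTF2, belongs to the cleavage stimulation factor and contacts U- or GU-rich sequence downstream of a poly(A) signal. CF Im 68, encoded by CPSF6, belongs to cleavage factor I, a complex that recognises UGUA upstream of that signal. Transcripts with several poly(A) sites can end at a proximal site, giving a short 3′ UTR, or at a distal site, giving a long one. Ribosomal protein and elongation factor transcripts are among the most abundant of a growing cell, are compact, and carry a 5′ terminal oligopyrimidine (TOP) tract at their start, a run of C and T that begins at a C and places their translation under control of the mTOR pathway.

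The starts of the 8 genes are printed because runs of C and T near them had no part in choosing the genes. Each line is 30 bases of the sense strand from RefSeq (build GRCh38.p14), 5′ to 3′, beginning 8 bases before the longest unbroken run of C and T that opens with C. Only the sense strand was searched, for runs that overlap the 10 bases on either side of an annotated start, and the capitals mark the run.
RPL21: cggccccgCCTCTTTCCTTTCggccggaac
RPL3: ccgaccggCCTCTaccggcgggatttgatg
RPS6: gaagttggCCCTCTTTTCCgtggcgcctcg
RPL22: ttcgctcaCCTCCCTTTCTaactccgctgc
RPL15: gagtacagCTCTTTCCTTTCCgtctggcgg
RPS24: tcgtggttCTCTTTTCCTCCTTggctgtct
EEF1A1: tgaacgttCTTTTTCgcaacgggtttgccg
EEF2: tcagcgttCTCTTCCgccgtcgtcgccgcc

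On GRCh38.p14 these stretches lie at chr13:27251543-27251572 (+) for RPL21, chr22:39319603-39319632 (−) for RPL3, chr9:19380217-19380246 (−) for RPS6 and chr1:6199578-6199607 (−) for RPL22. The others lie at chr3:23917134-23917163 (+) for RPL15, chr10:78033855-78033884 (+) for RPS24, chr6:73521011-73521040 (−) for EEF1A1 and chr19:3985442-3985471 (−) for EEF2. The run was longest in RPS24, at 14 bases, and shortest in RPL3, at 5. RPL21 and RPL15 had 13 bases, RPS6 and RPL22 had 11, and both elongation factor genes had 7. In RPS24, EEF1A1 and EEF2 the run began exactly at the annotated start, while in RPL21 it began 7 bases before it and in RPL15 10 bases 3′ of 1 of its 3 annotated starts. Runs of at least 7 bases were found in 7 of the 8 genes and in 20.7% of 27305 genes with an entry. Runs of at least 5, the length in RPL3, were found in 43.6% of these genes, and the median run was 11 bases over the 8 genes and 4 over all genes. The search rule was set after the sequences had been seen, and a run of letters does not show that a tract is used.

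Library totals were 7343112 reads after CstF-64 siRNA, 12792623 after CF Im 68 siRNA, 13443454 after control siRNA and 15806975 without siRNA. The transcripts of the targeted genes were lowest in their own libraries. CSTF2 had 17.0 RPM after CstF-64 siRNA, 34.2 after CF Im 68 siRNA, 23.7 after control siRNA and 36.8 without siRNA. CPSF6 had 180, 134, 186 and 164 RPM in the same 4 libraries. Protein loss was not measured in these files.

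The first question was how abundant the transcripts of the 8 genes were and whether either depletion moved them. RPS24 had most 3′ ends in every library and RPL21 fewest. After CF Im 68 siRNA, 5 of the 8 genes were below both control libraries, led by RPL22, EEF1A1 and RPS6, where 28.4% of all loci were below both by any size and 46.3% above. By the same count 32.9% of loci were above both controls and 42.1% below both in the CstF-64 library. In the CstF-64 library RPL3, EEF2 and RPS24 were above both. RPS6 equalled control siRNA there within counting error (ratio 0.997, interval 0.967 to 1.03), on the lower side by library total and the higher side by TMM factors. No gene passed the rule of a 2-fold difference against both controls in either depletion. A read marks 1 transcript end, so levels are given per library total without division by length, and RPM cannot tell fewer expressing cells from less RNA per cell.

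RPS24, a protein of the small ribosomal subunit, had 6196 RPM after CstF-64 siRNA, 4344 after CF Im 68 siRNA, 5431 after control siRNA and 4439 without siRNA. EEF2, the elongation factor that drives translocation of the ribosome, had 2615, 2138, 2230 and 1656 RPM in that order. RPS6, the small-subunit protein phosphorylated by S6 kinase, had 854, 608, 857 and 1262 RPM. Thus EEF2 was highest after CstF-64 siRNA and RPS6 highest without siRNA, and the 2 control libraries stood apart from each other for both.

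RPL22, a large-subunit protein that also binds RNA outside the ribosome, had 544 RPM after CstF-64 siRNA, 283 after CF Im 68 siRNA, 490 after control siRNA and 692 without siRNA. RPL15, a core protein of the large subunit, had 437, 354, 401 and 508 RPM in that order. RPL3, a large-subunit protein that lies close to the peptidyl transferase centre, had 84.6, 56.0, 48.1 and 27.6 RPM. EEF1A1, which delivers aminoacyl-tRNA to the ribosome, had 35.1, 16.4, 38.9 and 30.7 RPM.

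RPL21, another large-subunit protein, had 8.72 RPM (64 reads) after CstF-64 siRNA, 8.83 (113 reads) after CF Im 68 siRNA, 8.48 (114 reads) after control siRNA and 12.8 (203 reads) without siRNA. The order of the genes was the same in all libraries except in 2 places. RPL15 stood above RPL22 after CF Im 68 siRNA, and EEF1A1 above RPL3 without siRNA, where the intervals of both genes overlapped. The plot of reads by gene and library shows the span, which covers more than 2 orders of magnitude.

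**Figure D1:**
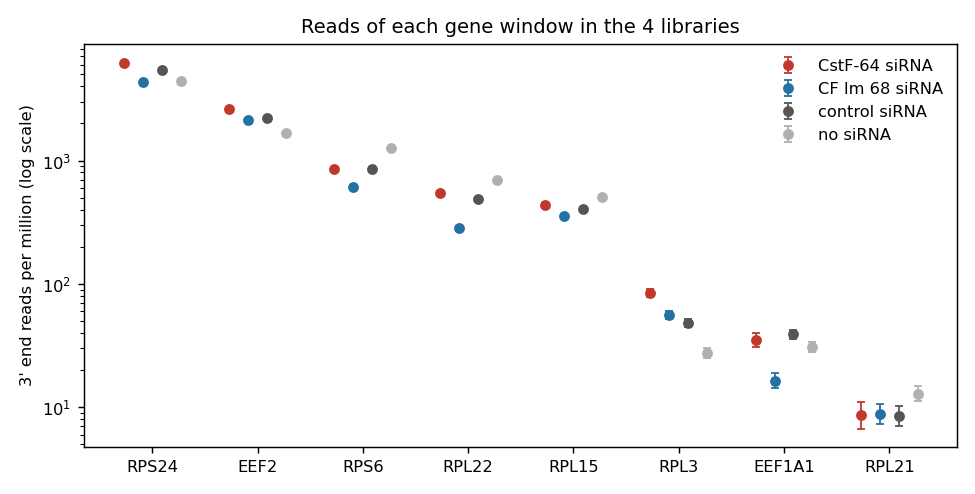
3′ end reads in RPM (log axis) in the windows of the 8 genes, 1 point per library with its exact 95% Poisson interval, in the order CstF-64 siRNA, CF Im 68 siRNA, control siRNA and no siRNA. RPS24 lies highest and RPL21 lowest, and CF Im 68 siRNA gave the lowest point of RPL22 (283 RPM), EEF1A1 (16.4 RPM) and RPS6 (608 RPM).

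The low counts of some of these genes belong to what the files hold, not to a known level in the cell. Many of their transcripts have processed pseudogenes, near copies elsewhere in the genome with which short reads can be shared. RefSeq lists 137 pseudogenes by symbol for RPL21, 50 for EEF1A1, 26 for RPS6, 22 for RPL22, 21 for RPL15, 20 for RPS24, 13 for RPL3 and none for EEF2. RPL21 and EEF1A1, with the most, had the fewest and next fewest reads in the sum of the libraries. The other genes did not follow this order. RPL3, with 13, ranked 6 or 7 by level in each library, and RPS6, with 26, ranked 3 in every library. How the authors treated reads with several matches was not given in the sources used here, so levels between genes are uncertain, and the part of pseudogenes in them was not tested.

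The largest rise in level was that of RPL3 after CstF-64 siRNA. Its log2 ratio was 0.80 against control siRNA and 1.58 against no siRNA (log2 of RPM plus 1), or 1.76-fold (interval 1.57 to 1.97) and 3.07-fold (2.71 to 3.47) in RPM. The control siRNA library itself stood at 0.78 above the no siRNA library, so the distance to either control depends on which is taken. Over the 8738 loci with at least 50 reads in every library, the median log2 ratio after CstF-64 siRNA was −0.11 against control siRNA and −0.01 against no siRNA. Of all loci, 97.0% had a lower ratio than RPL3 against control siRNA and 98.5% against no siRNA. At the 2-fold rule 0.801% of these loci were higher and 3.58% lower after CstF-64 siRNA, against none of the 8 genes in either direction.

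EEF1A1 had the lowest ratio after CF Im 68 siRNA against control siRNA, −1.20 on the log2 scale or 0.422 of its RPM (interval 0.358 to 0.496). Against no siRNA it stood at −0.87, or 0.534 (0.452 to 0.629). Of all loci, 0.904% had a lower ratio against control siRNA and 6.07% against no siRNA. RPL22 stood at −0.79 against control siRNA and −1.29 against no siRNA, or 0.578 and 0.409 of their RPM. RPS6 stood at −0.49 and −1.05, or 0.710 and 0.482. Each of the 3 passed 2-fold against 1 control and fell short against the other.

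RPL15 had smaller differences after CF Im 68 siRNA, −0.18 and −0.52 on the log2 scale, and RPS24 had −0.32 and −0.03. RPL3 was the only gene of the 8 above both controls in that library, at 0.22 and 0.995. The median over the 8 genes was −0.25 against control siRNA and −0.51 against no siRNA, while the median of all loci was 0.07 and 0.19. The all-loci shares past the 2-fold rule after CF Im 68 siRNA were 2.84% higher and 1.03% lower, against none of the 8 genes. Scaled by TMM factors or by median-of-ratios factors, which bring the median of all loci close to 0, 1 of the 8 genes passed the rule, EEF1A1, with TMM log2 ratios of −1.26 and −1.02. Of all loci, 127 were lower by this rule with TMM factors and 135 with median-of-ratios factors, against 90 by library total.

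In their pattern over the 4 libraries, RPS6 and RPL22 were each other's nearest gene among the 8, at a Euclidean distance of 0.32 between log2 levels centred on the gene's own mean. RPS24 and EEF2 paired at 0.29 and RPL21 and RPL15 at 0.27. RPL3 lay farthest from any other, 0.68 from EEF2, and EEF1A1 lay 0.59 from RPL22. RPS6, RPL22, RPL15 and RPL21 all had their highest level without siRNA, and RPL3, RPS24 and EEF2 had theirs after CstF-64 siRNA.

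The second question was where the transcripts ended. RPS24, EEF2, RPS6 and RPL3 each had 1 dominant site in every library. RPL22, RPL15, RPL21 and EEF1A1 had at least 2 that each held 5% or more of the reads, averaged over the libraries in RPM. The proximal site of RPL21 held only 4.43% of window reads without siRNA. In the set with at least 2 such sites the depleted libraries differed from the controls in no common direction. RPL22 and RPL21 had a larger share of proximal ends in both depleted libraries than in both controls. RPL21 had been chosen by that difference after CstF-64 siRNA. RPL15 had a smaller share after CstF-64 siRNA than in any other library, and the pair share of EEF1A1 lay between its 2 controls. No gene annotation of hg19 was used here, so sites are placed by distance and not assigned to exons, introns or UTRs.

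The main site of RPS24 (position 79800455 on chromosome 10, + strand) held 99.8 to 99.9% of window reads in the 4 libraries, and that of EEF2 (3976055 on chromosome 19, − strand) held 99.7 to 99.9%. RPS6 ended at 19376254 on chromosome 9 (− strand) in 99.4 to 99.8% of reads. RPL3 ended at 39708888 on chromosome 22 (− strand) in 97.5 to 99.4%. These genes thus had a single end in practice, and none of their other sites entered a pair.

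RPL22 used a proximal site at 6246279 and a distal site at 6245092 on chromosome 1 (− strand), 1187 nt apart. The proximal share, the percentage of the reads of both sites that fall on the one nearer the 5′ side, was 53.6% after CstF-64 siRNA (2077 of 3873 reads, interval 52.0 to 55.2) and 56.1% after CF Im 68 siRNA (1968 of 3511, 54.4 to 57.7). It was 40.8% after control siRNA (2562 of 6280, 39.6 to 42.0) and 39.7% without siRNA (4127 of 10405, 38.7 to 40.6). Both depletions lay above both controls, and the controls overlapped in their intervals.

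For RPL22 the difference was 12.8 points against control siRNA and 14.0 points against no siRNA after CstF-64 siRNA, and 15.3 and 16.4 points after CF Im 68 siRNA. In Fisher's exact test of 2 libraries, with Benjamini-Hochberg adjustment over all 4793 tested loci, the adjusted p against control siRNA was 2.25e-34 for CstF-64 siRNA and 3.84e-46 for CF Im 68 siRNA. The 2 depleted libraries differed by −2.42 points (CstF-64 siRNA minus CF Im 68 siRNA, adjusted p = 0.0794 in Fisher's exact test). With positions grouped within 10 nt in place of 25 nt, the difference after CstF-64 siRNA was 10.1 points against control siRNA and no longer passed against both controls.

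The RPM of each RPL22 site describes each end apart. It is scaled by library total, and other scalings, which could shift small differences, were not applied to single sites. The proximal site had 283 RPM after CstF-64 siRNA, 154 after CF Im 68 siRNA, 191 after control siRNA and 261 without siRNA. The distal site had 245, 121, 277 and 397 RPM in that order. In the CF Im 68 library both ends were therefore below both controls, the distal one further, while in the CstF-64 library the proximal site was above both controls and the distal one below both. A minor site at 6245170, 78 nt 5′ of the distal one, had 12.4, 5.94, 19.3 and 29.5 RPM and was also lowest after CF Im 68 siRNA.

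RPL15 used sites at 23961043 and 23961286 on chromosome 3 (+ strand), 243 nt apart. Its proximal share was 9.77% after CstF-64 siRNA (273 of 2795 reads, interval 8.69 to 10.9), 53.0% after CF Im 68 siRNA (2254 of 4255, 51.5 to 54.5), 33.5% after control siRNA (1593 of 4760, 32.1 to 34.8) and 49.5% without siRNA (3689 of 7456, 48.3 to 50.6). The CstF-64 library was far below the other 3, and the 2 controls were themselves apart by −16.0 points (control siRNA minus no siRNA, adjusted p = 2.25e-66, Fisher's exact test).

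After CstF-64 siRNA the proximal share of RPL15 was lower by −23.7 points against control siRNA and −39.7 points against no siRNA (adjusted p against control siRNA 3.81e-127, Fisher's exact test). In the CF Im 68 library it was 19.5 points above control siRNA (adjusted p = 2.82e-76, Fisher's exact test) but only 3.50 points above no siRNA, so it did not pass against both. The proximal site had 37.2 RPM after CstF-64 siRNA, 176 after CF Im 68 siRNA, 118 after control siRNA and 233 without siRNA, and the distal site 343, 156, 236 and 238 RPM. The proximal end was thus lowest, and the distal end highest, in the CstF-64 library. Another site 1050 nt 3′ of the distal one held 11.1% of window reads after CstF-64 siRNA, 4.92% after CF Im 68 siRNA, 9.97% after control siRNA and 6.06% without siRNA.

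RPL21 used sites at 27829666 and 27830717 on chromosome 13 (+ strand), 1051 nt apart. Its proximal share was 49.2% after CstF-64 siRNA (30 of 61 reads, interval 36.1 to 62.3), the value that chose the gene, and 32.7% after CF Im 68 siRNA (35 of 107, 24.0 to 42.5). It was 8.18% after control siRNA (9 of 110, 3.81 to 15.0) and 4.71% without siRNA (9 of 191, 2.18 to 8.76). Both depleted libraries lay above both controls, on few reads, and the intervals give no support here because the gene was chosen by this difference.

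The CF Im 68 value of RPL21 was 24.5 points above control siRNA and 28.0 above no siRNA. It is likewise a description without a test, since its control libraries are those of the values that chose the gene. Where sites were chosen on the 2 control libraries alone, RPL21 had no pair. The proximal site had 4.09 RPM after CstF-64 siRNA, 2.74 after CF Im 68 siRNA, 0.669 after control siRNA and 0.569 without siRNA, and the distal site 4.22, 5.63, 7.51 and 11.5 RPM.

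EEF1A1 used sites at 74226338 and 74225475 on chromosome 6 (− strand), 863 nt apart. Its proximal share was 10.5% after CstF-64 siRNA (23 of 220 reads, interval 6.74 to 15.3), 16.4% after CF Im 68 siRNA (28 of 171, 11.2 to 22.8), 7.93% after control siRNA (34 of 429, 5.55 to 10.9) and 20.5% without siRNA (82 of 400, 16.6 to 24.8). Both depleted values lay between the 2 controls, which differed by −12.6 points (control siRNA minus no siRNA, adjusted p = 1.87e-06, Fisher's exact test). Against control siRNA the adjusted p in Fisher's exact test was 0.509 for the CstF-64 library and 0.00959 for the CF Im 68 library, the second with differences of 8.45 points against control siRNA and −4.13 points against no siRNA.

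**Figure D2:**
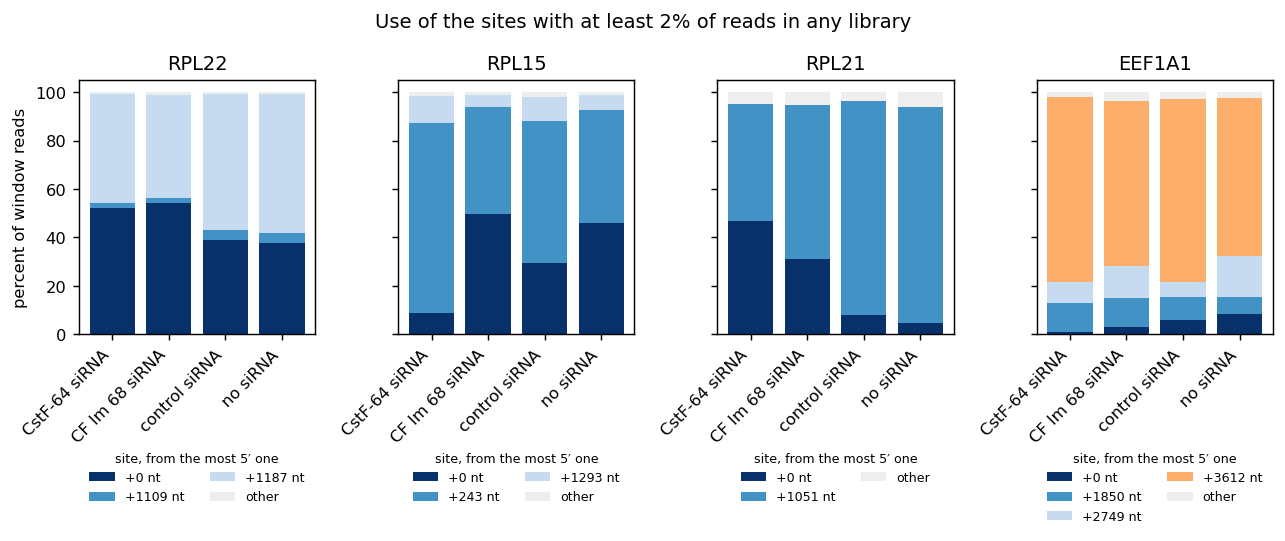
Percentage of window reads at each site with at least 2% of reads in any library, for RPL22, RPL15, RPL21 and EEF1A1, 1 bar per library (CstF-64 siRNA, CF Im 68 siRNA, control siRNA, no siRNA), with sites named by their distance in nt from the most 5′ one shown. The most 5′ segment is larger in both depleted libraries than in both controls for RPL22 and RPL21, and smallest after CstF-64 siRNA for RPL15.

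Counted over the 4 genes with a pair, 1 other than RPL21 passed as more proximal in the CstF-64 library (RPL22) and 1 as more distal (RPL15), while RPL21 was proximal by its choice. By the same rule, an adjusted p below 0.05 and at least 10 points against both controls, 8.20% of the 4793 tested loci were more proximal and 3.59% more distal in that library. In the CF Im 68 library 1 gene other than RPL21 was more proximal (RPL22) and none more distal, beside 24.2% and 2.63% of all loci. RPL21 met the proximal rule there as well, against the same controls that served to choose it, and is not counted. Against control siRNA the median change over all loci was 1.04 points in the CstF-64 library and 4.84 points in the CF Im 68 library.

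Set directly against each other, the 2 depleted libraries differed most for RPL15, by −43.2 points (CstF-64 siRNA minus CF Im 68 siRNA, adjusted p = 2.40e-297, Fisher's exact test). It was the 1 pair of the 4 that was lower by the 2-library rule, which 24.9% of all loci met. RPL21 differed by 16.5 points in the other direction, given without a test. Between the 2 controls, 2 of the 4 pairs were lower after control siRNA than without siRNA by the same rule, RPL15 and EEF1A1, where 11.1% of all loci were.

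**Figure D3:**
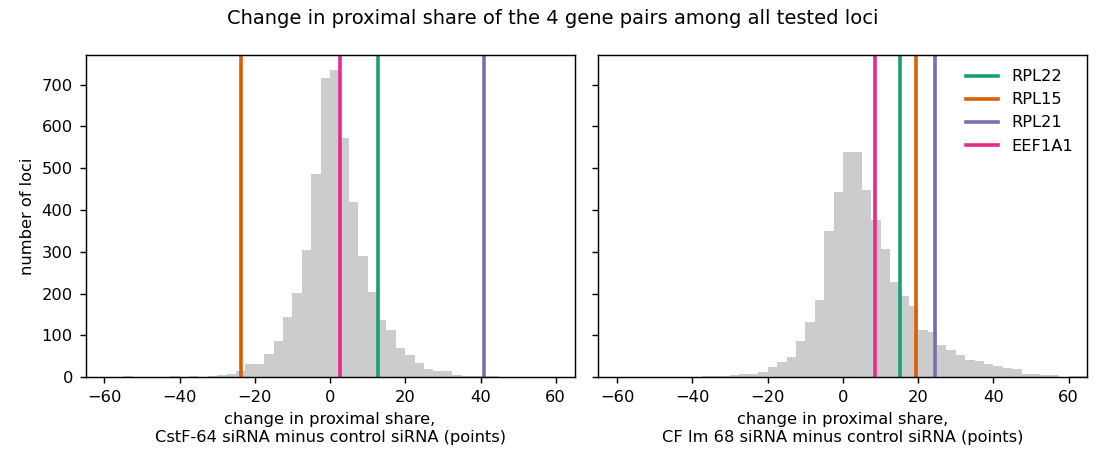
Change in proximal share (percentage points) against control siRNA after CstF-64 siRNA (left) and CF Im 68 siRNA (right). Grey bars count all 4793 tested loci in bins of equal width, and coloured lines mark the 4 genes with a pair. RPL15 lies at −23.7 points in the left panel and 19.5 in the right one, and RPL21, which was chosen by the left value, at 41.0 and 24.5.

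By the RPM of single sites, few of the 25 sites moved 2-fold or more against both controls (log2 of RPM plus 1). The proximal site of RPL21 was higher in both depleted libraries, which follows from the values that chose the gene and is not counted. Of the other sites, none was higher after CstF-64 siRNA and 2 were lower, the proximal site of RPL15 and the most 5′ site of EEF1A1, beside 1.65% higher and 5.07% lower of all kept sites. In the CF Im 68 library none was higher and 4 were lower, beside 8.57% and 1.73% of all kept sites. These 4 were both distal sites of RPL22, the most 5′ site of EEF1A1 and a far site of RPS24. This count was added after the values had been seen.

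The minor sites rest on few reads. The most 5′ site of EEF1A1 (74229087, 3612 nt 5′ of the main one) had 2 reads after CstF-64 siRNA, 6 after CF Im 68 siRNA, 30 after control siRNA and 40 without siRNA. The far site of RPS24 (79815235, 14780 nt 3′ of the main one) had 12, 18, 53 and 63 reads in that order, and a site 4147 nt 3′ of the main one had 9, 16, 58 and 43. These 3 sites are named because they were lower in RPM in both depleted libraries than in both controls, as was the minor RPL22 site. The counts that follow are descriptions, since the same count by any size was not made over all kept sites. Of all 13 sites that were neither a main site nor in a pair, 4 were below both controls in both depletions. In the CstF-64 library alone 5 were below both controls and 6 above, and in the CF Im 68 library 10 were below and 1 above. An RPS24 site 3617 nt 5′ of the main one, for example, had 14, 12, 14 and 9 reads. The RPS24 sites each held at most 0.0898% of window reads in any library, and the EEF1A1 site held 0.775% after CstF-64 siRNA, 2.86% after CF Im 68 siRNA, 5.74% after control siRNA and 8.23% without siRNA.

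A further measure counted early ends, the share of reads more than 25 nt and up to 5000 nt 5′ of the main site, which also covers genes with 1 dominant site. The genes fell into a set with many such ends (RPL22, RPL21, RPL15 and EEF1A1) and a set with almost none. In the second set, EEF2 had fewer early ends after CstF-64 siRNA than in any other library. The sites named above made up nearly all early ends of RPL22, RPL15 and RPL21, so their shares repeat the pairs. Internal priming on A-rich stretches was not separated from true ends.

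EEF2 had 0.0729% early ends after CstF-64 siRNA (14 of 19203 reads, interval 0.0399 to 0.122), 0.161% after CF Im 68 siRNA (44 of 27355), 0.204% after control siRNA (61 of 29935) and 0.149% without siRNA (39 of 26170). The CstF-64 value passed the rule, an adjusted p below 0.05 and a share 2-fold from both controls (adjusted p = 0.00445, Fisher's exact test over 8495 loci), by a narrow margin against no siRNA. It did not pass within 2000 nt, without positions of 1 read, or with libraries thinned to equal depth. RPS6 had 0.303%, 0.257%, 0.539% and 0.170%, and RPS24 had 0.0374%, 0.0342%, 0.0467% and 0.0557%.

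RPL3 had 1 early read of 617 after CstF-64 siRNA, 0 of 712 after CF Im 68 siRNA, which allows a share of up to 0.421% taken as 3 counts (exact upper bound 0.517%), 6 of 644 after control siRNA and 1 of 426 without siRNA. It passed the rule as lower after CF Im 68 siRNA (adjusted p = 0.0369, Fisher's exact test), but the no siRNA share of 0.235% lies under both of these limits, so that difference was not detectable at this depth. EEF1A1 had 22.7%, 29.9%, 24.0% and 33.8%, spread over 3 sites, and did not pass.

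RPL21 met the rule as higher in both depleted libraries, by ends that repeat its pair and against the controls that chose it, so it is not counted. None of the other 7 genes was higher in the CstF-64 library and 2 were lower (RPL15 and EEF2), where 0.871% and 1.17% of all loci were. In the CF Im 68 library none of the 7 was higher and 1 was lower (RPL3), beside 11.1% and 1.92% of all loci. RPL22 had 55.0% early ends in the CstF-64 library and 57.3% in the CF Im 68 library, against 43.5% after control siRNA and 42.6% without siRNA, and did not reach the 2-fold rule. The median early share over all loci was 2.74%, 4.33%, 3.11% and 2.79% in the 4 libraries, a value that lies between both sets of genes.

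The last measure was the exact nucleotide of cleavage within the main site. Cleavage usually scatters over several nucleotides, and the 8 genes covered a wide span. Almost every main site read of RPL3 ended at a single nucleotide, while no position of RPL15 took as much as 40% of reads in any library. Whether reads shared with pseudogenes bear on these profiles was not tested. EEF2 was cut at its main nucleotide more often in both depleted libraries than in both controls, and the shift lay almost entirely between neighbouring nucleotides. RPL15 also differed between the 2 controls.

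The most used position of RPL3 took 99.7% of main site reads after CstF-64 siRNA, 99.7% after CF Im 68 siRNA, 99.5% after control siRNA and 99.1% without siRNA, with only 3 positions seen within 25 nt. EEF1A1 had 96.4%, 95.8%, 97.2% and 94.3% at its main position, and RPS6 had 87.2%, 88.0%, 85.0% and 85.5%. These 3 genes lay above the median of 1807 main sites with at least 500 reads in every library, which was 72.3%, 71.9%, 69.4% and 68.9%. RPL3 and EEF1A1 fell short of that minimum themselves. RPL3 had 425 main site reads without siRNA, and EEF1A1 had 143 after CF Im 68 siRNA. RPS24 had 62.7%, 65.3%, 66.4% and 60.0%, with a second position 9 nt 5′ that took 26.2%, 24.8%, 22.2% and 25.2%. RPL21 had 32.3%, 38.9%, 44.6% and 45.1%, with intervals that all overlap.

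**Figure D4:**
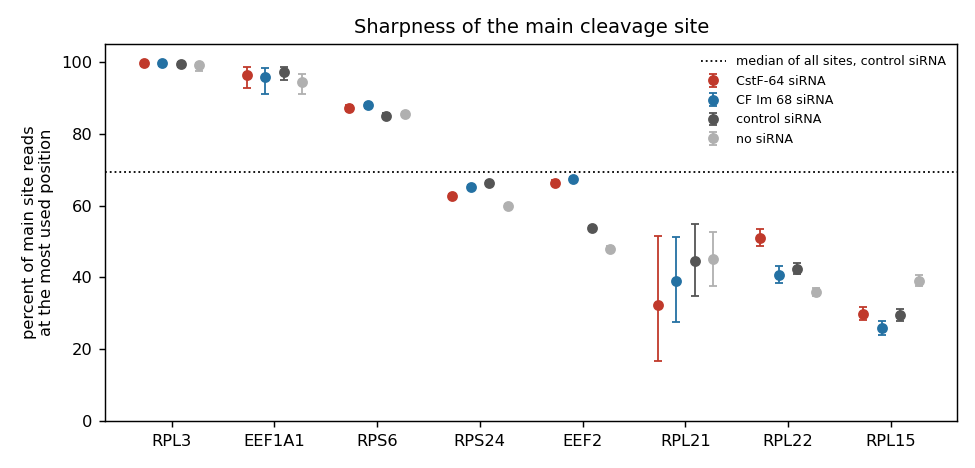
Percentage of main site reads at the most used position for each gene, 1 point per library with its exact 95% interval, in the order CstF-64 siRNA, CF Im 68 siRNA, control siRNA and no siRNA. The dotted line is the control siRNA median of 1807 main sites (69.4%). RPL3 lies at the top and RPL15 at the bottom, and EEF2 splits into depleted libraries above 66% and controls below 54%.

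In EEF2 the main position took 66.4% after CstF-64 siRNA (interval 65.7 to 67.1) and 67.5% after CF Im 68 siRNA (66.9 to 68.1), against 53.6% after control siRNA (53.1 to 54.2) and 48.0% without siRNA (47.4 to 48.6). The nucleotide just 5′ of it took 18.7%, 17.9%, 29.9% and 35.6% in the same order, and the one before that stayed at 10.7%, 10.1%, 11.3% and 10.1%. Both depleted libraries lay outside the controls at the first 2 positions and not at the one farthest 5′. The distance between position profiles, the percentage of reads that would have to change position, was 12.8% against control siRNA and 19.3% against no siRNA after CstF-64 siRNA, and 14.1% and 19.9% after CF Im 68 siRNA. The controls lay 7.12% apart.

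In RPL22 the distal site had 2 peaks 11 nt apart. The main one took 51.0% after CstF-64 siRNA, 40.8% after CF Im 68 siRNA, 42.4% after control siRNA and 35.9% without siRNA, and the one 11 nt 3′ of it took 18.4%, 32.9%, 26.7% and 30.9%. The CstF-64 library had the highest main peak and the lowest 3′ peak. Its distances were 10.2% against control siRNA and 15.7% against no siRNA, while those of CF Im 68 siRNA were 6.92% and 7.66%, close to the 7.59% between the controls.

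In RPL15 the main position took 29.9% after CstF-64 siRNA, 25.9% after CF Im 68 siRNA, 29.5% after control siRNA and 39.1% without siRNA. A position 7 nt 5′ of it took 21.2%, 21.5%, 16.3% and 10.8%, and one 15 nt 5′ took 8.96%, 10.3%, 17.9% and 15.3%. The depleted libraries were the 2 highest at the first of these positions and the 2 lowest at the second. Distances after CstF-64 siRNA were 10.8% and 20.9%, after CF Im 68 siRNA 13.5% and 24.1%, and the controls lay 13.7% apart, more than control siRNA from either depletion.

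**Figure D5:**
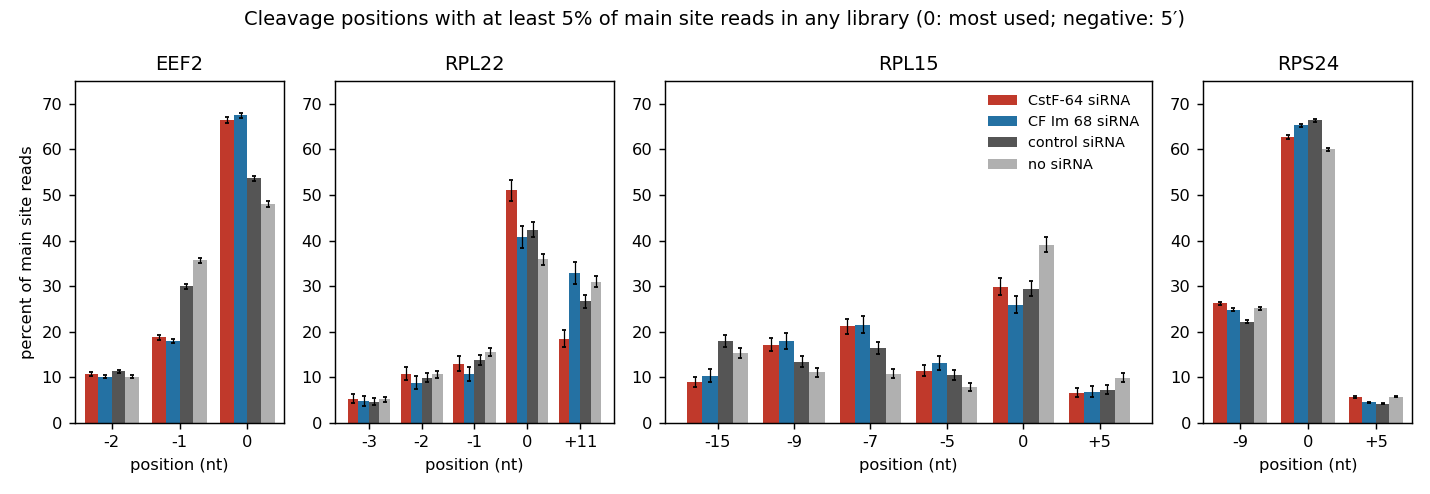
Percentage of main site reads at each position with at least 5% in any library, for EEF2, RPL22, RPL15 and RPS24, 1 bar per library with its exact 95% interval; 0 is the most used position and negative positions lie 5′ of it, in nt. In EEF2 both depleted libraries have more reads at 0 and fewer at −1 than both controls (18.7% and 17.9%, against 29.9% and 35.6%).

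Of the 5 genes with at least 500 reads at the main site in every library (RPS24, EEF2, RPS6, RPL22 and RPL15), 3 had a distance of at least 10% from both controls after CstF-64 siRNA (RPL22, RPL15 and EEF2), where 16.0% of all such sites had. In the CF Im 68 library 2 did (RPL15 and EEF2), beside 11.6% of all sites. Between control siRNA and no siRNA 1 did (RPL15), beside 11.1%. RPS24 and RPS6 stayed below 10% in every comparison, RPS6 at no more than 3.24%. Within 10 nt of the main position, EEF2 alone was called after CstF-64 siRNA.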

How the data were processed

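The deposited tables gave, for each library, raw read counts at every 3′ end nucleotide of each strand, which the authors had not normalized. Their coordinates follow hg19 (GRCh37), per the submitters' processing notes. The aligner, the treatment of reads with several matches and the removal of PCR copies are not stated: each was not given in the sources used here.

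Positions were grouped per strand: the most used position over the 4 libraries took all within 25 nt, and groups on the autosomes and X with a mean of at least 1 RPM became sites. The most used site took all sites within 10000 nt of its strand as a locus. Pairs were the 2 most used sites with at least 5% of locus reads and at least 50 reads in every library. Tests used scipy 1.17.1, pandas 2.3.3 and numpy 2.4.6 in Python 3.11.15, and TMM factors used edgeR 4.0.16 in R 4.3.3. The rules for the proximal share and for early ends were tested on simulated libraries, in which both controls had the same proportions, unlike the real ones. The other rules were not tested in this way.

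All 8 genes are named. The genes, lists and rules were chosen with earlier results of these data known. Windows of CPSF6 and CSTF2 were set by hand on hg19. Other ribosomal genes and cell line markers were not analysed here, for want of hg19 coordinates.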

Additional observations from a re-analysis of the deposited data

How the results depend on the processing

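No paired analysis was possible because each group had 1 library, and for the same reason no library could be left out. Of the counts over the 8 genes, 68 values under other settings stayed within 1.5 times the reported one and 11 did not, and no result changed sign past its threshold. That tally says little about the stability of the genes other than RPL21. The genes with more early ends were RPL21 alone under every setting, which follows from its choice. Most counts for total reads were 0 against 0. The genes lower after CF Im 68 siRNA in total reads numbered 1 (EEF1A1) with TMM and with median-of-ratios factors, against 0. More proximal pairs in the CstF-64 library, RPL21 counted, numbered 1, against 2, with positions grouped within 10 nt, which leaves the RPL22 peak 11 nt 3′ of the distal position out of its site, and with sites chosen on the 2 controls, where RPL21 had no pair. That second choice also gave 1, against 2 with RPL21, after CF Im 68 siRNA. Genes with fewer early ends after CstF-64 siRNA numbered 1 (RPL15), against 2, within 2000 nt, without positions of 1 read, and at equal depth. After CF Im 68 siRNA they numbered 0, against 1, under the last 2 of these, and within 2000 nt the 1 gene was RPS6 in place of RPL3. Sites with a changed cleavage profile after CstF-64 siRNA numbered 1 (EEF2), against 3, within 10 nt. That width leaves out the RPL22 peak 11 nt 3′ and the RPL15 position 15 nt 5′ of the main one. RPL15 stayed called after CF Im 68 siRNA at that width, and the part of single positions was not tested.

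Total reads of RPS6 after CstF-64 siRNA against control siRNA stood at −0.00 (log2) by library total and 0.09 by TMM. Over all loci, without the filter on low counts, the CstF-64 library had 414 higher and 1092 lower, against 70 and 313, and the CF Im 68 library 906 higher and 331 lower, against 248 and 90. Loci with fewer early ends within 2000 nt numbered 65 in the CstF-64 library, against 99, and 103 in the CF Im 68 library, against 163, which was 88 at equal depth. At 100 reads in place of 500, the sites with a changed cleavage profile numbered 1473 after CstF-64 siRNA, 1066 after CF Im 68 siRNA and 1186 between the controls, against 289, 210 and 201. The lower minimum and the missing filter each enlarge the set tested with features of few reads. These counts are therefore not shares and do not show that a larger part was changed. Depth limits RPL21 most, with 61 pair reads in the smallest library.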
